A study of Mus musculus with 7 samples.

Results

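The central region of 18S ribosomal RNA (rRNA), nucleotides 601 to 1200 of the 1849-nt copy assembled on mouse chromosome 17, was examined for crosslinks in individual-nucleotide crosslinking and immunoprecipitation (iCLIP) of DENR. Members were all listed crosslink sites on the plus strand of chromosome 17 from 39846953 to 39847552 (build GRCm38/mm10). They were chosen by position only, with earlier results of these data known. Of 4012, 16137 and 10209 listed sites, 205, 263 and 227 were members in DENR overexpressing replicates 1, 2 and 3. Members numbered 152 of 4324 and 254 of 7185 in the non-transfected replicates, 5 of 19 in IgG replicate 1 and 20 of 234 in IgG replicate 2. No site was listed on the minus strand of the region in any library. Together the 5 DENR lists held 285 of the 600 nucleotides of the region and 23263 positions genome-wide.

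All libraries came from NIH3T3, a mouse embryonic fibroblast line, irradiated with ultraviolet light at 254 nm and 150 mJ/cm2, lysed and partially digested with RNase I. The overexpressing cells (n = 3) were transiently transfected with Denr in a FLAG-Venus vector, the non-transfected cells (n = 2) carried endogenous DENR only, and both were precipitated with an anti-DENR antibody. The IgG libraries (n = 2) were the control for the precipitation, and whether their cells were transfected is not given in the sources used here. One dish of cells was used for an overexpression library and several for a non-transfected one, so the input differed between these groups. Lists of sites do not measure expression, and the overexpression itself was not checked here. The labels do not say whether replicates came from separate cultures, so p-values measure the spread between these libraries, which may be technical.

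The small ribosomal subunit carries a single large RNA, 18S rRNA, folded into a 5′, a central and a 3′ domain. The central domain builds the platform of the subunit, and the tips of helices 23 and 24 line the channel in which mRNA and initiator tRNA meet, while helix 26 lies near the exit of that channel. DENR acts with its partner MCTS1 on the small subunit during translation reinitiation and ribosome recycling, and its SUI1 domain is related to the initiation factor eIF1.

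The location of the region was checked with conserved sequences of small subunit rRNA. The motif of the helix 23 loop, GTGAAAT, occurred once in the 18S copy, at nucleotides 966 to 972, and that of the helix 24 loop, AGATACC, once at nucleotides 1065 to 1071. The motif that follows helix 27, GGAATTGA, occurred once at nucleotides 1204 to 1211, just past the region. The 3′ end of the region thus lay about where the central domain ends. No motif was used to check the 5′ end. The region and the flanking domains named below are set by position, and their border there may differ from that of the structural domains. GENCODE release M21 places here an exon of the rRNA gene CT010467.1 on the minus strand (39846353 to 39848201) and, on the plus strand, the single exon of Gm42418, a long non-coding RNA (39846958 to 39848788). A further non-coding RNA, AY036118, is annotated on the minus strand (39847113 to 39848035). RefSeq calls the copy a pseudogene, Rn18s-rs5, and places it at 39846354 to 39848202. Nucleotide numbers here follow the GENCODE exon. Reads of the many near-identical rRNA genes can align to this copy, and the sites cannot be assigned to a single gene copy.

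The sequences around the 10 highest positions and of 2 landmark loops are given 5′ to 3′ on the plus strand of GRCm38. They were read from the GENCODE transcript of the 18S copy. The first is the stretch from nucleotide 1070 to 1175, which starts in the helix 24 loop and contains 8 of the 10 highest positions, shown by the capitals (nucleotides 1090, 1123 to 1125 and 1158 to 1161). The next 2 are the surroundings of the other high positions, nucleotides 829 and 650, each in a capital. The last 2 are the loops of helices 23 and 24, with the motif in capitals, which locate the region in the subunit.
nucleotides 1070 to 1175, chr17:39847422-39847527: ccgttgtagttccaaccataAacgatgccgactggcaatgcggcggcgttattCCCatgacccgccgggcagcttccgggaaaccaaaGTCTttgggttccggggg
nucleotide 829, chr17:39847171-39847191: aattagagtgTtcaaagcagg
nucleotide 650, chr17:39846992-39847012: cagctccaatAgcgtatatta
helix 23 loop, chr17:39847311-39847331: gctagagGTGAAATtcttgga
helix 24 loop, chr17:39847410-39847430: gacgatcAGATACCgttgtag

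The first comparison was between the central region and the remainder of 18S rRNA. The score of a site is its height as the authors' peak caller gave it. The summed score of the region was 4781, 16469 and 12950 in the DENR overexpressing, 1610 and 11873 in the non-transfected, and 6 and 70 in the IgG lists. This was 77.4%, 49.8% and 61.0% of all 18S score in the overexpressing lists, 63.3% and 57.6% in the non-transfected lists. In the control precipitations it was 100% and 95.9%. The region thus held most of the score of the molecule in every library except DENR overexpressing replicate 2, the longest list.

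Per nucleotide, the region was denser in score than both flanking domains in 5 of 5 DENR libraries. The score density was 2.61 to 5.32 times that of the 5′ domain (nucleotides 1 to 600), a mean log2 ratio of 1.82 ± 0.38 (SD, n = 5, p = 0.0625 by an exact two-sided sign-flip permutation test, adjusted p = 0.171 over 9 tests). Against the 3′ domain (nucleotides 1201 to 1849) it was 1.73 to 10.4 times, a mean log2 ratio of 1.81 ± 0.99 (SD, n = 5, exact sign-flip permutation test, two-sided, p = 0.0625, adjusted p = 0.171). Both p-values are the smallest that 5 libraries allow, and no test here could reach 0.05. The ratio to the 3′ domain was lowest in DENR overexpressing replicate 2 (log2 ratio 0.79) and highest in DENR overexpressing replicate 1 (3.38), so its size differed widely between libraries of the same group.

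**Figure D1:**
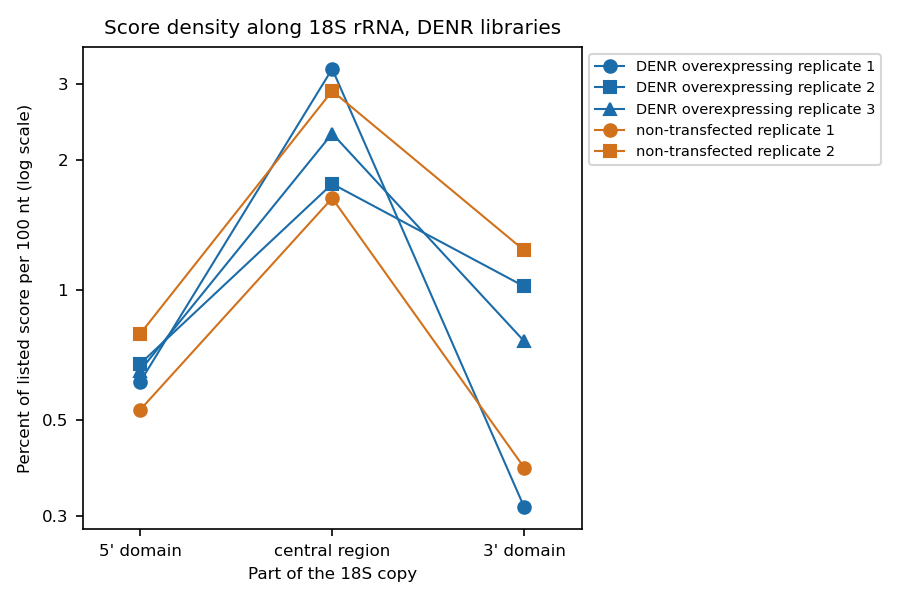
Score density along 18S rRNA in the 5 DENR libraries, as percent of the listed score per 100 nt (y axis, log scale) in the 5′ domain, the central region and the 3′ domain (x axis), with a line per library. All 5 lines peak in the central region, and the spread is widest in the 3′ domain.

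The higher density lay more in the height of the sites than in their number. With each site counted once, the mean log2 ratio was only 0.30 to the 5′ domain (exact sign-flip permutation test, two-sided, p = 0.0625, not adjusted) and 0.58 to the 3′ domain (p = 0.125, same exact test). In DENR overexpressing replicate 2 the latter turned, with 43.8% of the central and 44.1% of the 3′ nucleotides listed. Of the nucleotides of the region, 47.5% were listed in at least 1 DENR library, against 43.0% in the 5′ and 51.6% in the 3′ domain. The mean score per site was 40.1 ± 22.3 in the central region, 14.3 ± 9.53 in the 5′ domain and 18.1 ± 12.6 in the 3′ domain (SD, n = 5 DENR libraries). Positions of the central region were also shared by more libraries. In all 5 DENR lists, 130 of the 285 central positions (45.6%) were found, compared with 29.8% in the 5′ domain, 13.7% in the 3′ domain and 8.27% of all listed positions. The shared positions held 76.2% to 86.4% of the central score of each DENR library.

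Positions that were not shared were mostly missing from the lists with the smallest central scores. Of the 285, 73 were in 4 DENR lists, and 55 of these were missing only from non-transfected replicate 1, the list with the smallest central score. Another 16 were missing only from DENR overexpressing replicate 1. Of the 39 positions in a single list, 24 came from DENR overexpressing replicate 2, and 11 from non-transfected replicate 2. At positions shared by a pair of DENR libraries, the scores ranked alike, with a Spearman's rho of 0.768 ± 0.0806 (SD over 10 pairs, range 0.645 to 0.897). This is a description across positions of 1 molecule, which share their sequence. The mean was 0.762 for pairs within a group and 0.772 for pairs between overexpressing and non-transfected libraries.

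Sites were not spread along the region but fell into 4 blocks. Blocks were drawn after the values were seen, as runs of positions at most 15 nt apart, and their shares are a description. The block from nucleotide 1061 to 1200 held 75.2% ± 3.59 of the central score (SD, n = 5 DENR libraries), with 74.2%, 74.0% and 79.0% in the overexpressing and 78.5% and 70.3% in the non-transfected lists. The block from 813 to 885 held 19.5%, 11.3%, 14.1%, 16.9% and 17.0% in the same order, and the block from 635 to 697 held 6.32%, 10.3%, 6.90%, 4.60% and 12.8%. These 3 blocks were present in every DENR library, and their order was the same in all 5. The fourth, from 946 to 974, had 20 positions and a score of 722 in DENR overexpressing replicate 2, where it took 4.38%, and no site in the other 6 lists. It contains the helix 23 loop, whose 7 nucleotides had a score of 109 in that list.

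Outside the blocks, 295 nucleotides (49.2% of the region) were listed in no library. Whether reads could be aligned to these stretches was not examined, so an empty stretch need not be one without crosslinks. The gaps ran from 601 to 634, 698 to 812, 886 to 945 and 975 to 1060. Together they were richer in G and C than the blocks (60.7% against 49.2%), most of all the gap from 698 to 812 at 73.9%, but the gap from 975 to 1060 had only 46.5%. At the 3′ edge the block did not stop at the limit of the region. The last 10 nucleotides inside had scores of 0, 849, 250, 37 and 283 in the DENR lists (overexpressing replicates 1 to 3, then non-transfected replicates 1 and 2), and the first 10 outside had 0, 564, 211, 36 and 279. At the 5′ edge no site was listed within 10 nt on either side.

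**Figure D2:**
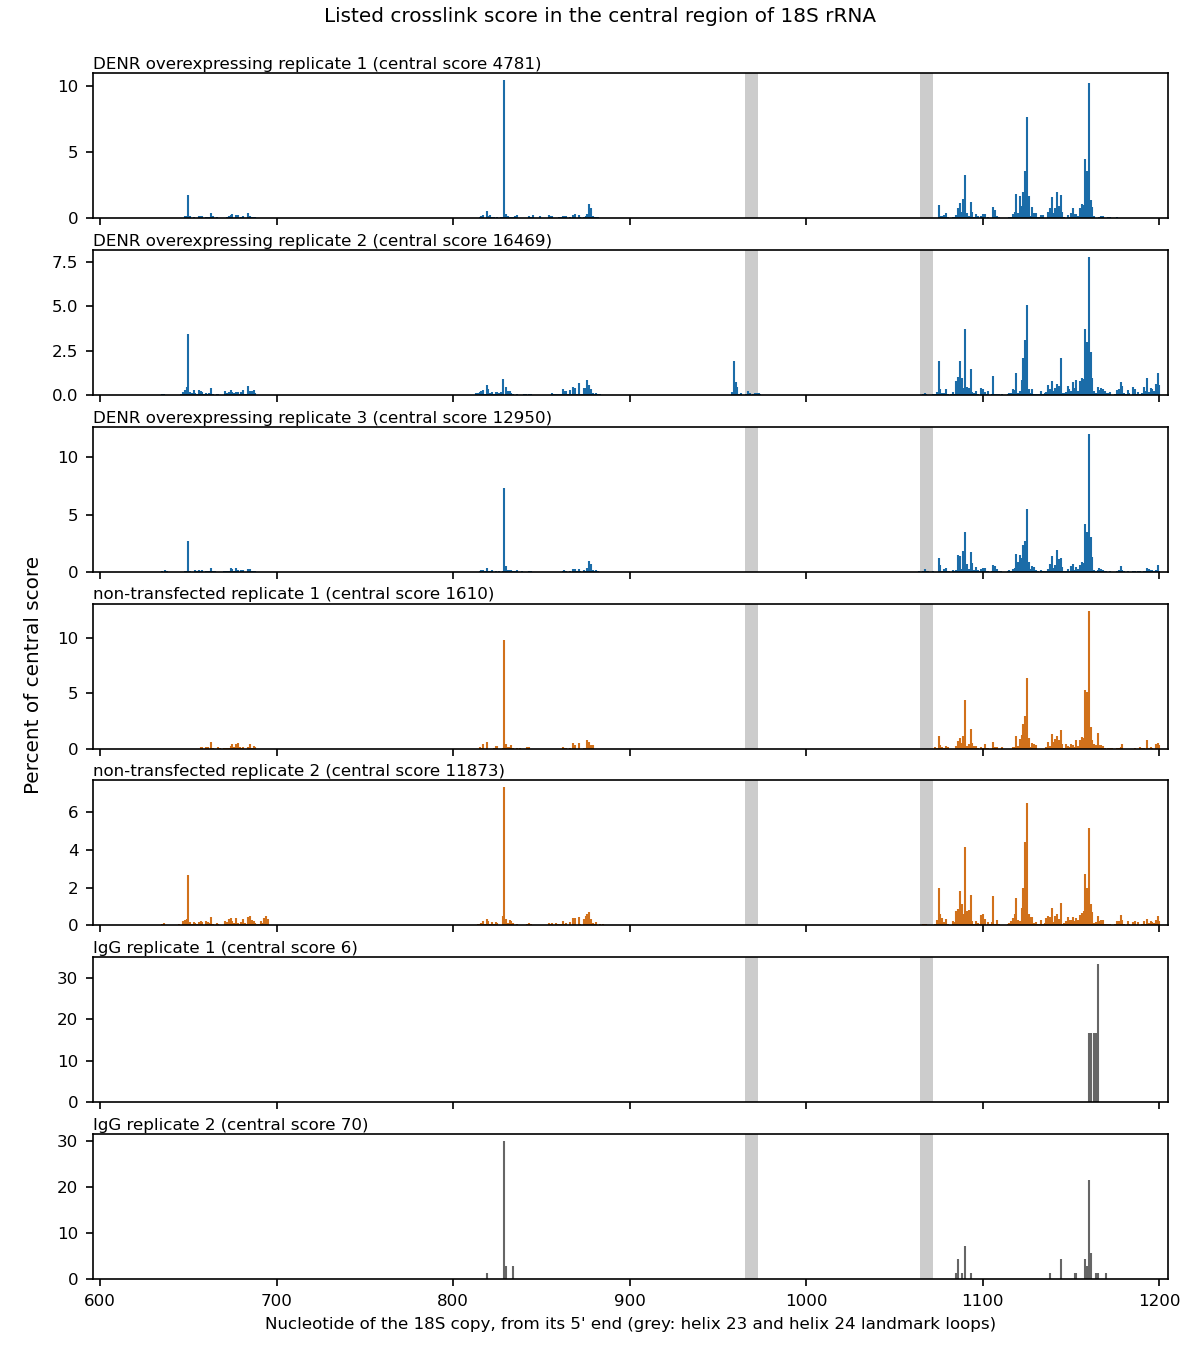
Percent of the central score (y axes, each with its own scale) at every listed nucleotide of the central region (x axis, counted from the 5′ end of the 18S copy) in the 7 libraries, with the helix 23 and helix 24 loops in grey. Tall lines stand near nucleotides 1090, 1125 and 1160 in the 5 DENR libraries and at 829 in all of them but DENR overexpressing replicate 2, and the IgG panels rest on scores of 6 and 70.

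Within the main block, the score lay to the 3′ side of the helix 24 loop. The 7 loop nucleotides had scores of 3, 41 and 66 in the overexpressing, 0 and 22 in the non-transfected and 0 in both IgG lists. The 50 nt from 1051 to 1100 held 13.1%, 16.2%, 16.6%, 13.7% and 19.1% of the central score in the DENR lists, those from 1101 to 1150 held 35.4%, 24.0%, 30.0%, 28.3% and 29.2%, and those from 1151 to 1200 held 25.8%, 33.8%, 32.3%, 36.5% and 21.9%. None of the 12 bins of 50 nt separated the overexpressing from the non-transfected libraries. Of the 12, 3 had no site in any list, and those from 901 to 950 and from 951 to 1000 had sites only in DENR overexpressing replicate 2. Such bins could show no separation.

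The 10 highest positions held 43.7% ± 7.09 of the central score over the DENR libraries (SD, n = 5). From 9 to 20 positions were enough to hold 50% of the score of a DENR list. Of the 10, 7 lay in runs of adjacent nucleotides (1123 to 1125 and 1158 to 1161), and 650, 829 and 1090 stood alone, a grouping made after the values were seen.

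Nucleotide 1160 (chromosome 17, 39847512) was the highest on average. It had scores of 488, 1281 and 1564 in the overexpressing, 201 and 611 in the non-transfected, and 1 and 15 in the IgG lists. Among all sites genome-wide it ranked 2, 1 and 1 in the overexpressing and 3 and 6 in the non-transfected lists. It also ranked 3 in both IgG lists, with a score of only 1 in IgG replicate 1, so a high rank was not particular to DENR. It took 9.54% ± 3.08 of the central score (SD, n = 5). Its neighbours 1158, 1159 and 1161 were also among the 10, and the order 1160, 1158, 1159, 1161 was the same in 5 of 5 DENR libraries. The run from 1158 to 1161 held 19.7%, 16.9% and 22.8% in the overexpressing and 24.8% and 11.0% in the non-transfected lists, so the non-transfected pair enclosed all 3 overexpressing values. In the IgG lists the run held 2 of 6 (33.3%) and 24 of 70 (34.3%, Clopper-Pearson 95% interval 23.3% to 46.6%).

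The run from 1123 to 1125 was as regular among the DENR libraries but was in neither IgG list. Nucleotide 1125 (39847477) had scores of 368, 838 and 711 in the overexpressing and 103 and 770 in the non-transfected lists, or 6.23% ± 1.01 of the central score (SD, n = 5). The order 1125, 1124, 1123 was the same in 5 of 5 DENR libraries, and the run held 13.3%, 10.3%, 10.6%, 11.6% and 12.9% of their central score, 11.7% ± 1.33 on average. In IgG replicate 2 the run had 0 of 70, which allows a share of up to 5.13% (upper limit of the exact 95% interval, counting error only), below the lowest DENR share. IgG replicate 1 had 0 of 6, which allows up to 45.9% and so distinguishes nothing. The wider bin from 1101 to 1150 held 4 of 70 (5.71%, interval 1.58% to 14.0%) in IgG replicate 2, against 24.0% to 35.4% in the DENR lists. These contrasts were chosen after the values were seen and rest on a single IgG library. Sites below the calling threshold are not listed, so a score of 0 need not mean that there were no reads, and the intervals do not allow for this.

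Nucleotide 1090 (39847442) was the steadiest of the high positions apart from 1123. Its scores were 155, 611 and 451 in the overexpressing and 71 and 491 in the non-transfected lists, 3.80% ± 0.476 of the central score (SD, n = 5). Both non-transfected shares (4.41% and 4.14%) were above the 3 overexpressing ones (3.24%, 3.71% and 3.48%) as shares of the central score, a separation noticed after the values were seen. As shares of the listed score the groups overlapped, with 0.634%, 0.392% and 0.482% against 0.432% and 0.718%. IgG replicate 2 listed it with 5 of 70 (7.14%, interval 2.36% to 15.9%).

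**Figure D3:**
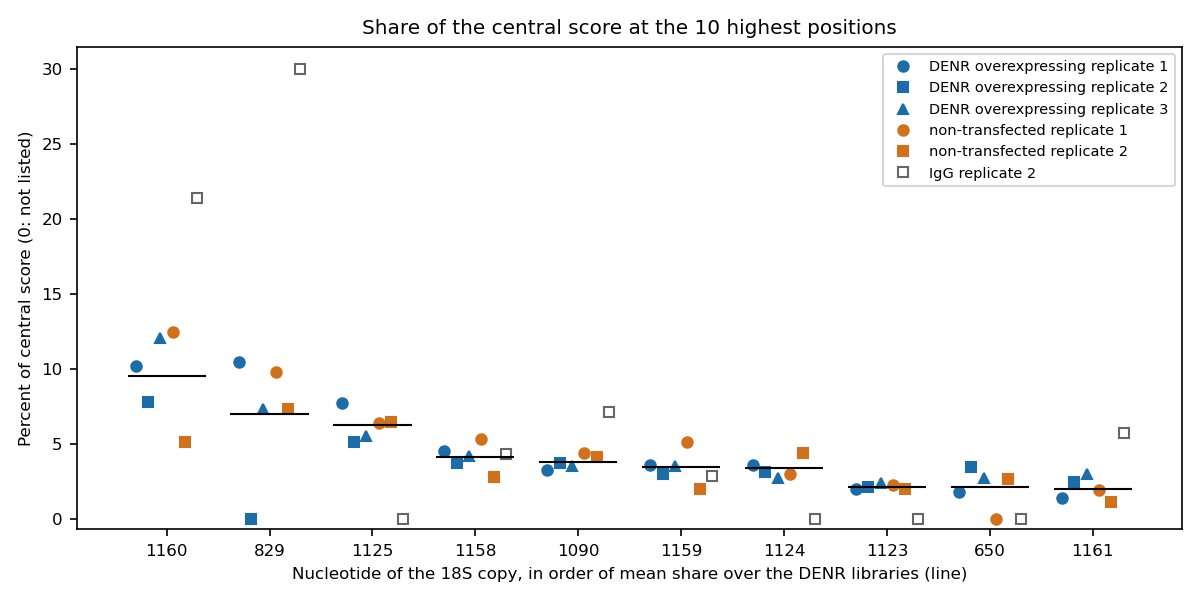
Percent of the central score (y axis, 0 where the list lacks the position) at the 10 highest nucleotides (x axis), with a point for each DENR library and for IgG replicate 2 and a line at the mean of the 5 DENR libraries. Nucleotides 1123, 1124, 1125 and 650 are at 0 in IgG replicate 2, whereas 829 and 1160 take 30.0% and 21.4% there.

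Nucleotide 829 (39847181), a uridine, was a single-nucleotide peak in 4 of 5 DENR libraries. Its scores were 500 and 947 in overexpressing replicates 1 and 3, 158 and 869 in non-transfected replicates 1 and 2, and 21 in IgG replicate 2. In the 4 DENR lists this was 15.0 to 18.5 times the highest other score within 10 nt, and 70.7% to 81.0% of the score of that 21-nt window. In IgG replicate 2 it was 10.5 times the highest other score and 30.0% of the central score (21 of 70, interval 19.6% to 42.1%), above the 7.31% to 10.5% of those 4 DENR lists. Its share of the 21-nt window there, 80.8%, was within the range of the DENR lists.

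In DENR overexpressing replicate 2 nucleotide 829 was not listed, although both its neighbours were, with scores of 147 at 828 and 76 at 830. It was the only central position missing from that list alone. The other sites within 10 nt held 3.97% of the central score outside 829 there, above the 2.48% to 3.28% of the other 4 DENR lists. The highest score of that list anywhere in the genome was 1281. Low scores nearby were listed there, 2 at nucleotide 835 and 1 at 837. That list was also the only one deposited without a track line. The cause of the absence of 829 was not tested.

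**Figure D4:**
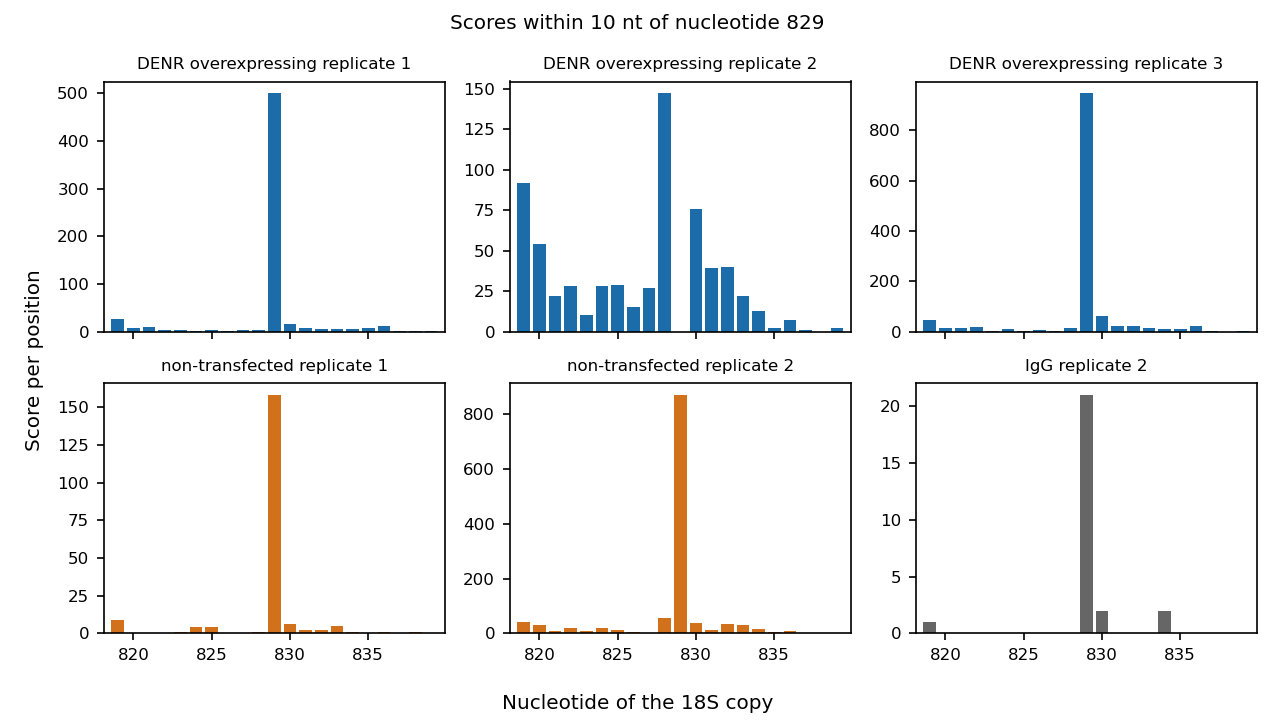
Score per position (y axes, each with its own scale) within 10 nt of nucleotide 829 (x axis) in the 5 DENR libraries and IgG replicate 2. A single bar at 829 dominates 5 of the panels, and DENR overexpressing replicate 2 has no bar there but bars of 147 and 76 beside it.

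Nucleotide 650 (39847002) led the first block. Overexpressing libraries gave it scores of 84, 567 and 348, and non-transfected replicate 2 gave it 315. It was listed in neither non-transfected replicate 1 nor the IgG lists, and took 2.11% ± 1.32 of the central score (SD, n = 5, with 0 for the missing library). The whole block from 635 to 697 had no listed score in either IgG list, where 0 of 70 allows up to 5.13% (counting error of the listed score only). The DENR shares lay on both sides of that limit (4.60% to 12.8%), so a difference was not detectable in every library at this depth.

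The next question was whether overexpression changed the use of the region. The region held 19.5%, 10.6% and 13.8% of the listed score of the overexpressing and 9.80% and 17.4% of that of the non-transfected libraries. The means were 14.7% ± 4.54 (SD, n = 3) and 13.6% ± 5.36 (SD, n = 2), and differed by less than either SD (p = 0.8 by exact two-sided permutation over libraries, 0.9 adjusted). The sign of this difference turned without DENR overexpressing replicate 1 (-1.38 percentage points) or non-transfected replicate 1 (-2.72). As a share of 18S score the means were 62.7% ± 13.9 and 60.5% ± 4.01 (p = 1 by the same exact permutation, 1 adjusted), and this sign turned without DENR overexpressing replicate 1 (-5.06 points) or non-transfected replicate 2 (-0.576 points). The numbers of central sites differed by 0.07 in log10 units (p = 0.6 by exact permutation, 0.771 adjusted), and by -0.04 without non-transfected replicate 1. With 3 against 2 libraries no p under 0.2 was possible.

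Single positions were compared in the same way. Of the 130 positions in all 5 DENR lists, 3 (2.31%) had a higher share of the listed score in every overexpressing than in every non-transfected library, where the background over all such positions was 4.94%. In the opposite direction it was 13 (10.0%), against a background of 9.09%. The 3 were nucleotides 831, 863 and 1161, named after their values were seen. Nucleotide 1161 took 0.266%, 0.257% and 0.416% of the listed score with overexpression and 0.189% and 0.193% without. Among the 13 was nucleotide 1165, with overexpressing shares of 0.00818%, 0.0469% and 0.0224% and non-transfected shares of 0.140% and 0.0849%. These counts depended on which libraries were used, and the background moved with them. Without non-transfected replicate 2 the 3 became 53 (40.8% of 130, against 19.6% of all positions then shared), and without DENR overexpressing replicate 2 they became 28 (21.4% against 14.6%). Without non-transfected replicate 1 the 13 became 101 (54.6% of 185, against 30.2%). The cause was not tested.

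The region was then set against the IgG background. The DENR lists had 220 ± 44.4 central sites (SD, n = 5), the IgG lists 12.5 ± 10.6 (SD, n = 2), which was 1.33 higher in log10 units (p = 0.0952 by exact two-sided permutation, 0.171 adjusted, the smallest p possible). Relative to its list, however, the region was not larger in DENR than in IgG. Its share of the listed score averaged 14.2% ± 4.22 over the DENR libraries (SD, n = 5) and was 28.6% (6 of 21) and 16.1% (70 of 434) in the IgG lists, -8.12 percentage points apart (p = 0.286 by exact two-sided permutation, 0.429 adjusted). Of the 18S score it held 61.8% ± 10.1 in the DENR lists and 97.9% ± 2.91 in the IgG lists, and all 5 DENR libraries were below both IgG libraries (p = 0.0952 by exact two-sided permutation, 0.171 adjusted). With 50 nt taken off each end of the region both differences turned, to 5.01 and 13.7 points. The shorter region lacks nucleotides 1151 to 1200, which held 100% and 41.4% of the central score in the IgG lists.

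The IgG sites of the region were positions of the DENR lists. All 21 central positions of the IgG lists were in at least 1 DENR list and 19 of them in all 5, and the 5′ domain had no IgG site at all. Such overlap was not particular to the region. Genome-wide, 221 positions were in both a DENR and an IgG list, where the IgG lists held 19 and 234 sites. How many of those 221 were in all 5 DENR lists was not counted. Of the 285 central positions, 21 (7.37%) were in an IgG list, against 0.95% of all positions in a DENR list. Nucleotides 1160, 1161, 1164 and 1165 were in both IgG lists. Nucleotides 1164 and 1165 took 0.132% ± 0.113 and 0.513% ± 0.545 of the central score in the DENR lists (SD, n = 5). By mean share they stood at places 125 and 38 in the region, and 1165 ranged from 0.0418% (DENR overexpressing replicate 1) to 1.43% (non-transfected replicate 1). In IgG replicate 1 they had 1 and 2 of a score of 6, and in IgG replicate 2 they had 1 of 70 each.

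The rule did not use the base of a site, so base composition was examined next. Ultraviolet crosslinking is known to favour uridine, which the printed sequences give as T. Uridine took 28.9%, 23.2% and 29.0% of the central score in the overexpressing and 30.3% and 26.1% in the non-transfected lists, against 22.0% of the nucleotides. The excess was 5.53 ± 2.85 percentage points, above 0 in 5 of 5 libraries (SD, n = 5, exact sign-flip permutation test, two-sided, p = 0.0625, adjusted p = 0.171). Its size depended on which high positions were counted. Without nucleotide 829 alone it was 0.0661 points (exact sign-flip permutation test, two-sided, p = 0.9375), but without all 10 highest positions, most of which are not uridines, it was 5.06 points and above 0 in 5 of 5 libraries (exact sign-flip permutation test, two-sided, p = 0.0625, not adjusted). With each site counted once it was 1.07 points (exact sign-flip permutation test, two-sided, p = 0.1875). In the other domains uridine took 34.8% ± 2.32 of the score in the 5′ domain (21.5% of its nucleotides) and 28.3% ± 4.99 in the 3′ domain (22.2%). Cytidine had the largest share of the central score, 29.9% ± 2.44 against 24.7% of the nucleotides, above it in 5 of 5 libraries. Without the 10 highest positions it fell below the nucleotides left, to 15.3% ± 1.07 against 24.4%. Guanosine took 17.8% ± 3.34 of the central score against 30.2% of the nucleotides, below it in 5 of 5 libraries.

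The nucleotide that follows the site was more uneven, a description added after the values were seen. Whether a listed position is the crosslinked nucleotide itself or lies beside it was not resolved. All bases named here are therefore those of the listed positions. A uridine followed sites with 43.6%, 32.8% and 45.2% of the central score in the overexpressing and 42.8% and 34.1% in the non-transfected lists, 39.7% ± 5.80 on average, against 22.0% of the nucleotides. Guanosine followed sites with 10.3% ± 3.20 of the score, against 30.2%. Without the 10 highest positions a uridine still followed 30.5% ± 3.45 of the score, above the 21.7% of the nucleotides left in 5 of 5 libraries. The 5′ domain was like the central region in this (42.9% ± 4.08 against 21.3%), and the 3′ domain was not (22.9% ± 4.23 against 22.2%, above it in 3 of 5 libraries). In IgG replicate 2 the uridine share was 61.4%. No test was made of these differences between domains.

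Predicted pairing was described last, also after the values were seen. RNAplfold gave the probability that a nucleotide is unpaired in the free RNA, which is not its state in the ribosome. All 10 highest positions were above the median of the region, 0.350. The values were 0.925 to 0.955 for nucleotides 1123 to 1125 and 1158 to 1160, 0.864 for 1090, 0.725 for 829, and only 0.445 for 1161 and 0.434 for 650. Weighted by score, the mean was 0.613 ± 0.0290 over the DENR libraries (SD, n = 5), against 0.409 for all nucleotides of the region. The 10 positions made this difference, since without them the weighted mean was 0.413 to 0.448. The 2 positions of both IgG lists that were not among the 10 highest, 1164 and 1165, had 0.0499 and 0.0139.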

How the data were processed

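Lists of crosslink sites of 7 libraries were used. The authors mapped reads to mm10 with Bowtie 0.12.7 and up to 2 mismatches (the submitters' processing notes name Bowtie2). They removed reads with the same molecular identifier and start, and called sites per library with iCount peaks (100 permutations, a flank of 15 nt, false discovery rate 0.05). The track lines of 6 lists say that regions were treated separately, the methods name RegionsAsOne instead, and DENR overexpressing replicate 2 was deposited without a track line. Each deposited score is a whole number, positive for plus-strand and negative for minus-strand sites, and its magnitude is the peak height. Only sites past the threshold are listed and scores are not scaled to library size, so depth is unknown, and levels were given as shares of the listed, 18S or central score. Counting intervals treat score units as independent and cover counting error only.

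Sites were placed on the 18S copy by position, with sequence and annotation from GENCODE release M21 on the same build, and no genome was used here. Group means were compared by exact permutation tests over libraries, domains and uridine by exact sign-flip tests, with Benjamini-Hochberg adjustment over 9 tests. Shares in IgG lists have Clopper-Pearson 95% intervals. Named were the 10 positions with the highest mean share of central score over the 5 DENR libraries, nucleotide 829, and positions in both IgG lists. The alternatives were a minimum score of 10, lists cut to 4012 sites, a region 50 nt shorter at each end, a tolerance of 5 nt, each site counted once, and leaving out each library. Leaving out the highest site of each domain was a further alternative. The members, lists and tests were chosen with earlier results of these data known. Functions were tested on simulated data. Blocks, runs of adjacent positions, the base beside a site, the contrast of single bins with IgG and pairing (ViennaRNA 2.7.2) were added after the values were seen. Scripts ran under Python 3.11.15 with scipy 1.17.1, pandas 2.3.3, numpy 2.4.6 and matplotlib 3.10.9.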

Additional observations from a re-analysis of the deposited data

How the results depend on the processing

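No test could reach 0.05 with these libraries, so p-values say nothing about stability, and the directions of both comparisons of shares between DENR groups depended on single libraries. Of 196 alternative values, 9 changed sign, all of them differences between groups. The 196 also include counts of positions and mean shares of single nucleotides, which cannot change sign. Where no cause is given, the cause was not tested. The difference between overexpressing and non-transfected libraries in the central share of listed score (1.07 percentage points) was -0.538 with each site counted once, and -2.72 to 4.85 when each library was left out in turn. For the share of 18S score (2.26) it was -0.270 with a minimum score of 10, and -5.06 to 8.73 with one library left out. For log10 site numbers (0.07) it was -0.0423 (without non-transfected replicate 1) to 0.18. Against IgG, the listed share (-8.12) was 5.01 with a region 50 nt shorter at each end, which removes 1151 to 1200, and -14.3 to -1.90 with one library left out, and the 18S share (-36.1) was 13.7 with the shorter region and -40.0 to -33.1 with one library left out. Log10 site numbers differed by 1.03 to 1.64. A minimum score of 10 left a single IgG library.

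The log2 density ratios (1.82 and 1.81) fell to 0.30 (5′ domain) and 0.58 (3′ domain) with each site counted once, and were 1.68 to 1.93 (5′ domain) and 1.42 to 2.07 (3′ domain) with one library left out, and the uridine excess was 4.83 to 6.60. It was 5.06 without the 10 highest positions, 6.51 for the base before the site, 17.7 for the base after it and 3.67 against listed positions, all added after the data were seen. The 130 positions in all 5 DENR lists became 30 with a minimum score of 10 and 216 with a tolerance of 5 nt. They became 130 to 185 when each list was left out in turn and all the others were required, a count that cannot fall below 130. Positions higher in every overexpressing library (3) became 0 with a minimum score of 10 and 4 to 53 without one library, and positions higher in every non-transfected library (13) became 1 and 16 to 101. With a minimum score of 10 the mean share of the central score rose for all 10 highest positions, for example from 9.54% to 10.8% at 1160, and from 2.14% to 2.38% at 1123, the only one to move by more than its SD between libraries. A rise was fixed in advance, because these positions score above 10 in every DENR list that holds them and the cut lowers only the total.

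The groups use the same replicate numbers, and no label ties a number to a batch. Deviations from group means over 9 bins of 50 nt correlated by -0.252 between same-numbered overexpressing and non-transfected libraries, -0.643 between overexpressing and IgG and 0.734 between non-transfected and IgG libraries. With 2 same-numbered pairs per comparison and a central score of 6 in IgG replicate 1, these correlations cannot decide whether libraries are paired. Libraries of the same number were treated as unpaired because no label ties them. Under the replicate block, on 2 pairs and with 0.5 as the smallest exact permutation p, the differences in listed share were 1.47 (overexpressing minus non-transfected) and -8.03 (DENR minus IgG), those in 18S share 3.12 and -35.9, and those in log10 sites 0.07 and 1.33, and no direction changed.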
